A study of Mus musculus with 3 samples.

Results

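Colony-stimulating factors and Kit ligand are secreted or membrane-bound growth factors of blood and tissue cells. The genes examined here are 4 ligands (Csf1, Il34, Csf3 and Kitl) and 5 receptor genes (Csf1r, Csf2ra, Csf2rb, Csf3r and Kit). These 9 were listed by name and taken from 21438 genes that have a row in at least 1 table. All 9 have a row in the injured beads and uninjured tables. The FACS table has rows for 8 and none for Csf3, which therefore has no value in that library.

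Csf1 and Il34 both bind Csf1r, a receptor tyrosine kinase on which the survival of macrophages depends. Csf3 acts through Csf3r on neutrophils, and Csf2ra pairs with the shared signalling subunit Csf2rb to bind granulocyte-macrophage colony-stimulating factor. Kitl binds Kit, a receptor tyrosine kinase known for its role in mast cells, melanocytes and blood progenitors. After a nerve is cut, monocytes and neutrophils enter its distal part and take part in clearing myelin.

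The data are Drop-seq counts, in which transcript ends are captured on barcoded beads and duplicates are removed by a unique molecular identifier (UMI). There are 3 libraries from sciatic nerves of adult mice, 1 in each group. Distal nerve 9 days after resection was cleaned with myelin removal beads (wild-type CD1) or sorted by FACS with a gate that the sources do not give (CD1 and C57BL/6). Uninjured nerve of wild-type CD1 mice was also cleaned with beads, and only the cells its authors predicted to be mesenchymal were used here. How many animals were pooled for a library is not stated in them either.

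The injured beads table held 4300 barcodes and 10859939 UMIs, with a median of 1343 per barcode. The FACS table held 2000 barcodes and 7122377 UMIs, with a median of 2356.5. The mesenchymal tables held 1289 injured cells with 4746263 UMIs and 880 uninjured cells with 2169121 UMIs. All 1289 injured mesenchymal barcodes are also in the beads table, and the beads and FACS tables share 1 barcode. Levels are CPM, a gene's UMIs scaled to a common total of UMIs after summing the cells, and brackets give 95% intervals that cover counting error only. With 1 library in each group there was no test, and a difference between libraries cannot be told apart from a difference between the animals or preparations behind them. Levels are compared across cells for the same gene, and not between genes.

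Cells were placed in classes by clustering without the 9 members, and clusters were named from other marker genes. The beads library gave 1118 mesenchymal-like, 580 endothelial cell-like, 509 Schwann cell-like, 509 mononuclear phagocyte-like and 389 B or plasma cell-like cells. It also gave 293 pericyte or smooth muscle cell-like, 210 T or NK cell-like, 125 neutrophil-like and 36 mast cell-like cells, with 342 left unnamed. The FACS library gave 747 phagocyte-like, 651 mesenchymal-like, 93 Schwann cell-like, 87 endothelial cell-like, 20 mast cell-like and 16 neutrophil-like cells, with 300 unnamed. The summed markers of each class were highest in the class named for them, in both libraries. The Schwann cell-like pools had 14650 CPM and 11481 CPM of summed mesenchymal markers, above their summed Schwann markers of 6132 CPM and 5897 CPM, and the part of mesenchymal RNA in their ligand values was not tested. The FACS endothelial cluster was led by the pericyte gene Rgs5 and had 4228 CPM of summed pericyte markers, so it held pericytes too.

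**Figure D1:**
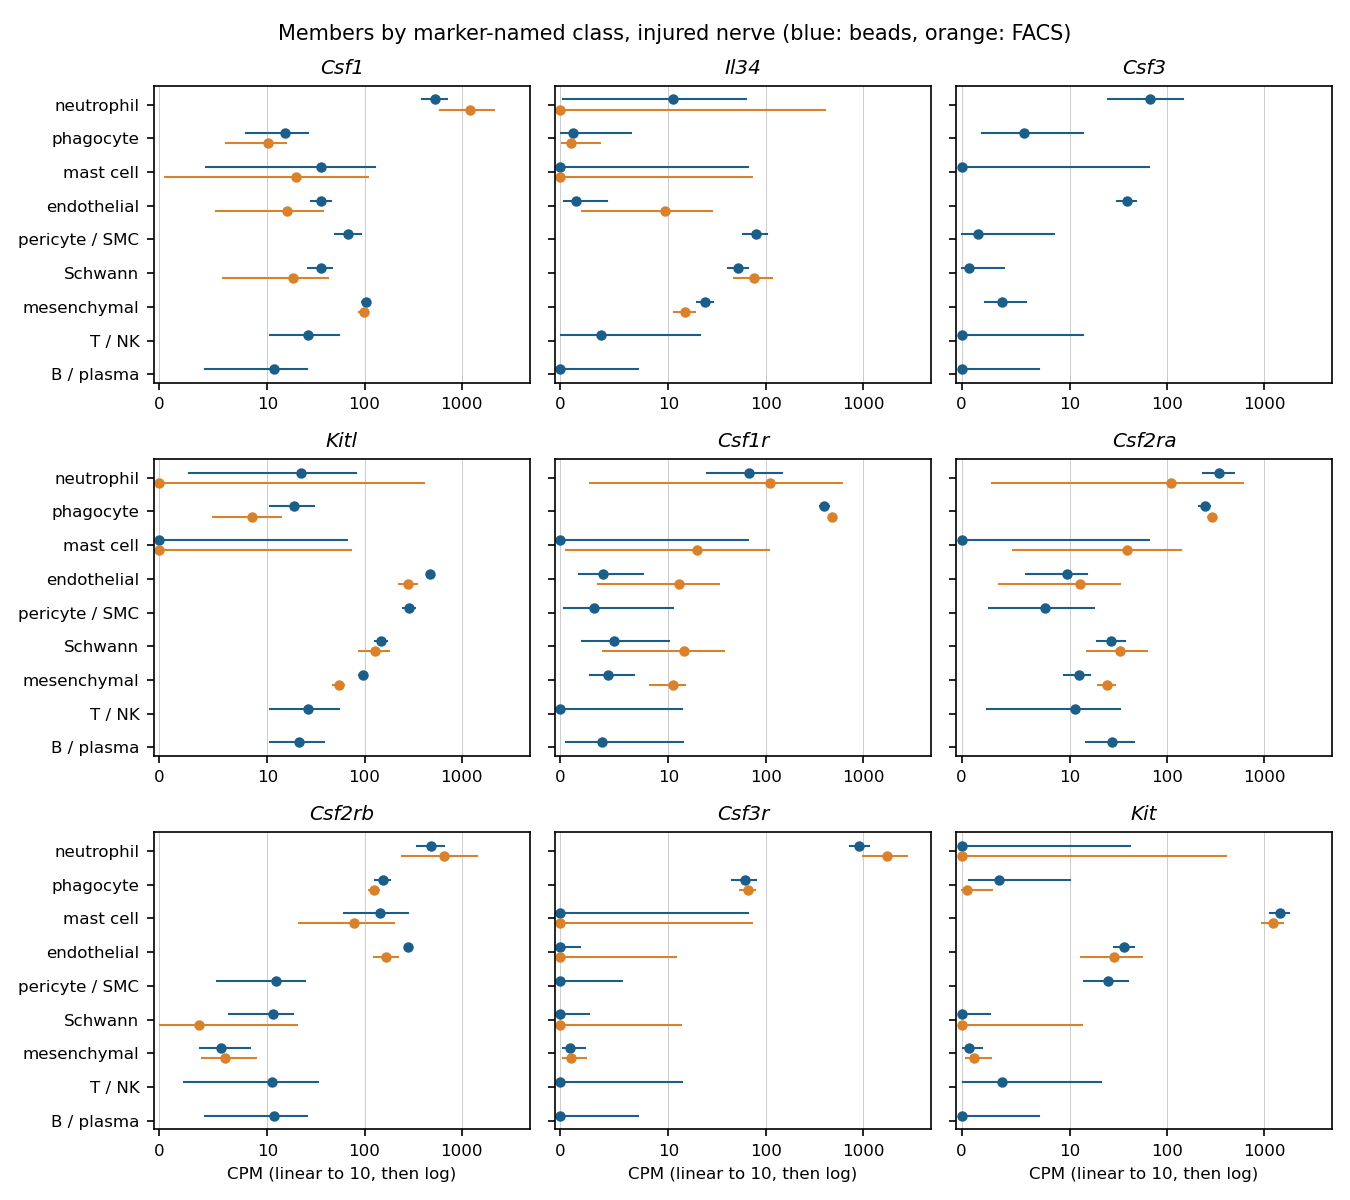
Level of each member in the marker-named classes of the injured nerve, as CPM on an axis that is linear to 10 and logarithmic above. Points are summed cells of the beads library (blue) and the FACS library (orange), and bars are exact Poisson 95% intervals. Csf1r sits highest in phagocyte-like cells, Csf3r in neutrophil-like cells and Kit in mast cell-like cells, while Csf1 and Kitl are spread over several classes.

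Csf1 encodes macrophage colony-stimulating factor and lies on chromosome 3, 107741048 to 107760469, minus strand (GENCODE vM21, GRCm38, as for all positions here). Its level was highest in neutrophil-like cells, with 527 CPM [388 to 701] in the beads library and 1205 CPM [601 to 2156] in the FACS library. Mesenchymal-like cells, the fibroblast-like cells of connective tissue, followed with 103 CPM [93.8 to 113] and 97.7 CPM [88.6 to 108]. The neutrophil-like values rest on 47 and 11 UMIs, and because these cells are few and shallow they held 6.62% of the Csf1 UMIs of named classes in the beads library. Mesenchymal-like cells held 65.8% there and 90.9% in the FACS library. With cells classed by marker UMIs alone, the beads neutrophil-like value was 238 CPM from 13 UMIs. Without cells holding markers of other classes it was 979 CPM from 16 UMIs. Among the other beads classes, pericyte or smooth muscle cell-like cells had 67.9 CPM, endothelial cell-like cells 36.1 and Schwann cell-like cells 35.4. Phagocyte-like cells were low in both libraries, at 15.1 CPM and 10.05 CPM. Csf1 was thus low in the class in which its receptor was highest. At least 1 Csf1 UMI was seen in 17.6% of neutrophil-like cells (median depth 596 UMIs) and in 28.0% of mesenchymal-like cells (median 3303.5). After thinning every cell to 500 UMIs these shares were 13.2% and 5.37%, so the order of the shares followed the CPM only at equal depth.

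Il34 encodes interleukin 34, the other ligand of Csf1r, and lies on chromosome 8, 110741829 to 110805924, minus strand, where the models Gm15894 and Gm15895 overlap it on the other strand. It was found in structural cells, meaning those that build the nerve and its vessels. In the beads library pericyte or smooth muscle cell-like cells had 78.7 CPM [58.6 to 103], Schwann cell-like cells 52.3 CPM [41.1 to 65.7] and mesenchymal-like cells 24.0 CPM [19.7 to 29.0]. In the FACS library Schwann cell-like cells had 76.3 CPM [47.2 to 117] and mesenchymal-like cells 14.8 CPM [11.3 to 18.9]. With all cells of a class summed, the order Schwann above mesenchymal was the same in both libraries and lay beyond counting error. It does not hold for every kind of mesenchymal cell. Injured endoneurial-like cells, a mesenchymal subclass described below, had 47.8 CPM, and their interval overlapped that of the Schwann cell-like pool. The 33 beads Schwann cell-like cells without 2 or more markers of another class kept 1 Il34 UMI, or 43.4 CPM [1.10 to 242]. Endothelial cell-like cells of the beads library had 3 UMIs (1.46 CPM), and phagocyte-like cells had 1 UMI and 2 UMIs in the 2 libraries. Csf1 and Il34 therefore had different patterns over the structural classes.

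Csf1r, the shared receptor of both ligands, was found mainly in phagocyte-like cells, a joined class of macrophages, monocytes and dendritic cells. It had 400 CPM [358 to 444] there in the beads library and 476 CPM [446 to 508] in the FACS library. These cells held 88.4% and 94.2% of its UMIs in named classes. A UMI was seen in 38.9% of phagocyte-like cells of the beads library (median depth 1073 UMIs), against 1.03% of endothelial cell-like cells (median 1922). Thinned to 500 UMIs the 2 shares were 19.6% and 0. Neutrophil-like cells came next with 67.3 CPM [24.7 to 147] from 6 UMIs, in a pool whose summed phagocyte markers reached 15441 CPM, and the part of other cells in that value was not tested. The gene Hmgxb3 overlaps Csf1r on the other strand, and the sources do not say whether counting used strand.

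Among the phagocyte-like clusters the level of Csf1r varied about as much as between some classes. In the beads library the cluster led by Ccr2, Retnla and Ms4a6c had 573 CPM [497 to 656], and the cluster led by Mmp12, Gpnmb and Lyz2 had 273 CPM [229 to 323]. In the FACS library the cluster led by Ccl8, Pf4 and F13a1 had 878 CPM [767 to 1002] and the one led by Ccr2, Retnla and H2-Eb1 had 630 CPM [565 to 701]. The FACS clusters led by Mmp12, Mmp9 and Cxcl3 and by Gpnmb, Fabp5 and Atp6v0d2 had 380 CPM [306 to 466] and 306 CPM [272 to 343]. In both libraries the clusters led by genes of lipid-laden macrophages such as Gpnmb were below the Ccr2 clusters, and their intervals did not overlap. The share of cells with a UMI did not follow this order in the beads library (38.3% in the Ccr2 cluster and 39.9% in the Mmp12 cluster), where median depths were 896 and 2116 UMIs. After thinning the shares were 24.0% and 12.9%. Clusters were formed from the genes of these same cells, so these values are a description.

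**Figure D2:**
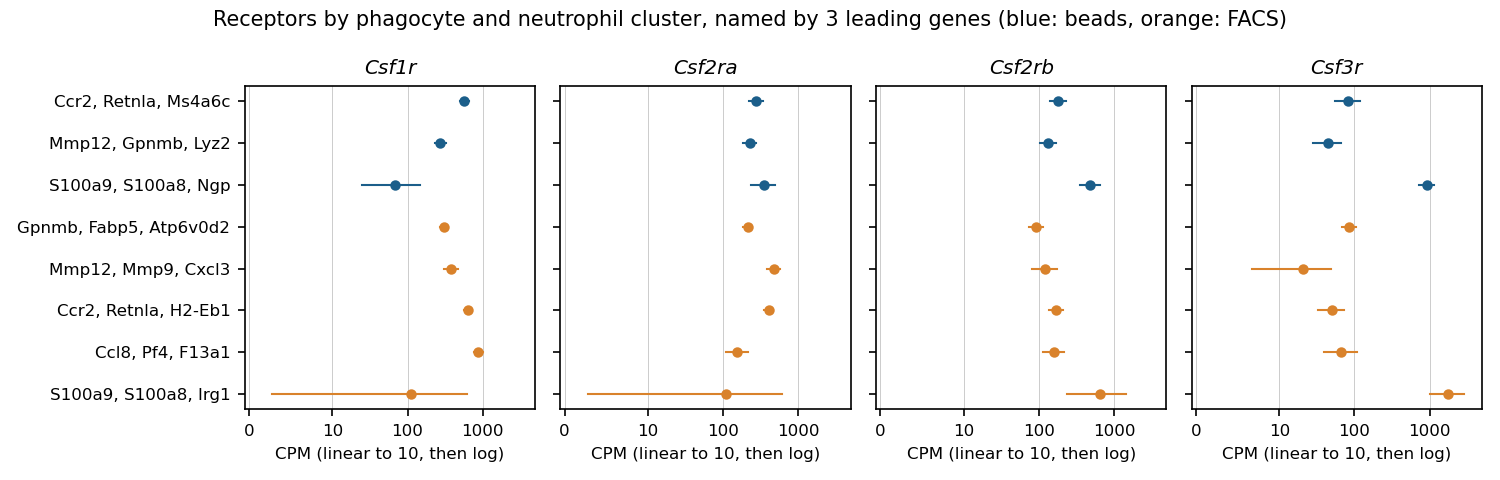
Receptor levels in each phagocyte-like cluster and in the neutrophil-like cluster (led by S100a9), as CPM on an axis that is linear to 10 and logarithmic above. Points are summed cells of a cluster, labelled by its 3 leading genes, in the beads library (blue) and FACS library (orange), with exact Poisson 95% intervals. Csf1r runs from 273 to 878 CPM over the phagocyte-like clusters, and Csf3r reaches 920 and 1752 CPM in the S100a9 clusters.

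Csf2ra, the ligand-specific subunit of the granulocyte-macrophage colony-stimulating factor receptor, lies on chromosome 19, 61223957 to 61228429, minus strand. Phagocyte-like cells had 246 CPM [214 to 281] in the beads library and 289 CPM [266 to 313] in the FACS library. Neutrophil-like cells of the beads library had 348 CPM [236 to 494], and this did not differ from the phagocyte-like value beyond counting error. The FACS neutrophil-like cells gave a single UMI. In the phagocyte-like clusters Csf2ra did not follow Csf1r. It was highest in the Mmp12, Mmp9 and Cxcl3 cluster of the FACS library at 471 CPM [388 to 567] and in the Ccr2 cluster at 406 CPM [354 to 463]. It was lowest in the Ccl8, Pf4 and F13a1 cluster at 154 CPM [110 to 211], where Csf1r was highest.

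Csf2rb, the signalling subunit shared by the receptors for granulocyte-macrophage colony-stimulating factor, interleukin 3 and interleukin 5, lies on chromosome 15, 78325752 to 78353847, plus strand. It was high in neutrophil-like cells, at 483 CPM [349 to 650] in the beads library from 43 UMIs and 657 CPM [241 to 1430] in the FACS library from 6 UMIs. Endothelial cell-like cells had 280 CPM [258 to 304] and 167 CPM [125 to 219]. Phagocyte-like cells had 154 CPM [129 to 182] and 125 CPM [110 to 142]. The endothelial value was above the phagocyte value beyond counting error in beads cells, by 0.87 on the log2 scale [0.59 to 1.15]. In the FACS library the same difference was 0.42 [-0.04 to 0.85], which counting error covers. Endothelial cell-like cells held 70.4% of the Csf2rb UMIs of named classes in the beads library. A Csf2rb UMI was found in 39.7% of them (median depth 1922 UMIs), against 1.70% of mesenchymal-like cells (median 3303.5). Thinning to 500 UMIs gave 13.3% and 0.597%. In the FACS library 29.9% of endothelial cell-like cells held a UMI, but 1.35% did after thinning, when 74 of the 87 cells were left.

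The partner subunit had few UMIs in the same cells. Csf2ra had 9.75 CPM from 20 UMIs in endothelial cell-like cells of the beads library and 12.9 CPM from 4 UMIs in the FACS library. The summed phagocyte markers of the beads endothelial pool were 1227 CPM, against 43306 CPM in phagocyte-like cells. In 160 endothelial cell-like cells without UMIs of 2 or more markers of any other class, Csf2rb was 360 CPM [270 to 471], against 280 CPM in all 580. Csf2ra in those 160 cells was 27.2 CPM [7.40 to 69.5] from 4 UMIs. A neighbouring copy, Csf2rb2, lies on the same chromosome at 78282507 to 78305721 on the minus strand and encodes an interleukin 3 receptor subunit. It was also highest in endothelial cell-like cells, at 249 CPM in the beads library and 132 CPM in the FACS library. Runs of 50 bases that both genes share make up 18.4% of the longest Csf2rb transcript but 0% of its last 1000 bases, the end that Drop-seq captures. The rule for reads that match both genes is not stated, so the split between them remains uncertain.

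Csf3 encodes granulocyte colony-stimulating factor and lies on chromosome 11, 98701263 to 98703629, plus strand. It was rare, with 111 UMIs among all 4300 barcodes of the beads library. Of these, 80 were in endothelial cell-like cells, which had 39.0 CPM [30.9 to 48.5]. They lay in 30 of 580 cells (5.17%), and a single cell held 11. Neutrophil-like cells had 67.3 CPM [24.7 to 147] from 6 UMIs, and the 2 classes did not differ beyond counting error. Phagocyte-like cells had 5.83 CPM from 5 UMIs. Mesenchymal-like cells had 3.75 CPM from 17 UMIs in 6 cells, of which 1 cell held 10. In all these classes the gene was thus seen in few cells. Single cells held up to 11 UMIs in the endothelial and 10 in the mesenchymal class, but at most 2 in the neutrophil and phagocyte classes.

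Csf3r, the receptor for Csf3, lies on chromosome 4, 126024550 to 126044440, plus strand, and was highest in neutrophil-like cells. It had 920 CPM [732 to 1142] there in the beads library and 1752 CPM [1002 to 2846] in the FACS library. Phagocyte-like cells had 60.6 CPM [45.2 to 79.4] and 65.3 CPM [54.6 to 77.5]. Both steps were larger than counting error, and apart from 4 UMIs in mesenchymal-like cells of each library no other named class had a UMI. A UMI was seen in 44.8% of the neutrophil-like cells (median depth 596 UMIs) and in 0 of 580 endothelial cell-like cells (median 1922), where a count of 0 allows a share of cells with a UMI of up to 0.517%, taken as 3 of the 580 cells. Phagocyte-like cells outnumbered neutrophil-like cells and held 37.7% of Csf3r UMIs of named classes in the beads library and 86.7% in the FACS library.

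Kitl encodes Kit ligand, also called stem cell factor, and lies on chromosome 10, 100015630 to 100100416, plus strand. In the beads library it was highest in endothelial cell-like cells at 466 CPM [437 to 497], followed by pericyte or smooth muscle cell-like cells at 288 CPM [249 to 333]. Schwann cell-like cells had 149 CPM [129 to 170] and mesenchymal-like cells 97.4 CPM [88.5 to 107]. Each step in this order was larger than counting error when all cells of a class were summed. Without cells holding 2 or more markers of another class, the 160 endothelial cell-like cells left had 631 CPM [510 to 774] and the 24 pericyte or smooth muscle cell-like cells left had 622 CPM [311 to 1113], which did not differ by their intervals. The 538 mesenchymal-like cells left had 131 CPM [111 to 152], and the 33 Schwann cell-like cells left had 0 UMIs, with an upper limit of 160.0 CPM. The FACS library had the same order of the 3 classes it shares, with 280 CPM [224 to 345], 127 CPM [88.6 to 177] and 54.1 CPM [47.4 to 61.6]. Phagocyte-like cells were low at 18.6 CPM and 8.54 CPM. A Kitl UMI was found in 46.7% of endothelial cell-like cells of the beads library and in 2.55% of phagocyte-like cells, or 19.6% and 1.15% after thinning.

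Kit, the receptor of Kitl, lies on chromosome 5, 75574916 to 75656722, plus strand. Mast cell-like cells had 1461 CPM [1162 to 1813] in the beads library and 1232 CPM [947 to 1576] in the FACS library, and 80.6% and 80.0% of them held a UMI. With 36 and 20 cells these small classes held 45.6% and 80.8% of the Kit UMIs of named classes. Endothelial cell-like cells came next at 36.5 CPM [28.7 to 45.8] and 28.9 CPM [13.2 to 54.9]. In those without 2 or more markers of another class Kit had 1 UMI in 160 beads cells, or 6.79 CPM [0.172 to 37.8], and 0 UMIs in 17 FACS cells. The interval of the beads cells includes the 36.5 CPM of the whole class. A Kit UMI was seen in 9.14% of beads endothelial cell-like cells, and all Schwann cell-like cells together had 0 UMIs in both libraries. Pericyte or smooth muscle cell-like cells had 24.7 CPM [14.1 to 40.1] from 16 UMIs, all in the cluster led by Rgs5, Serpina1b and Colec11. That class also had 825 CPM of summed endothelial markers, and their part in its Kit value was not tested. Classes high in Kitl were thus mostly other classes than the mast cell-like cells that were high in Kit, and the endothelial pool had UMIs of both. The 160 beads cells without other markers held few UMIs of that pool, with 93 of its 957 Kitl UMIs. The part of other cells in its Kit value was therefore not tested.

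The beads and FACS libraries were then compared within 4 classes, each with at least 50 cells in both. A gene was called where the pools differed 2-fold or more, the ratio's interval excluded 1 and 50 CPM or more was reached in either pool. None of the members was called in any of the 4 classes. Among all genes past 50 CPM the share called was 10.2% in Schwann cell-like, 12.7% in endothelial cell-like, 4.68% in mesenchymal-like and 6.41% in phagocyte-like cells. The members at least 50 CPM in a pool numbered 2, 2, 2 and 4 of the 8 with a row, in that order. Kitl was higher in beads than in FACS cells by 0.74 in log2 [0.42 to 1.07] in the endothelial class and by 0.85 [0.61 to 1.08] in the mesenchymal class. Csf2rb was higher by 0.74 [0.33 to 1.18] in the endothelial class. The FACS endothelial pool had 4228 CPM of summed pericyte or smooth muscle markers, against 1057 CPM in the beads pool. The part of such cells in the 2 endothelial differences was not tested. Strain, isolation and gate differ together between these libraries and cannot be told apart.

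Injured and uninjured mesenchymal cells were compared next, with the tables the authors deposited for both. Of the 9 members, Csf1 and Kitl reached 50 CPM in a pool, and none was called, while 15.3% of the 3964 genes past 50 CPM were. Kitl was 94.6 CPM [86.1 to 104] in injured and 175 CPM [158 to 194] in uninjured cells, a log2 difference of -0.89 [-1.09 to -0.69]. Csf1 was 102 CPM [92.7 to 111] and 129 CPM [114 to 145], a log2 difference of -0.35 [-0.56 to -0.13]. Il34 was 22.3 CPM [18.3 to 27.0] and 42.9 CPM [34.6 to 52.5], a log2 difference of -0.94 [-1.36 to -0.52]. All 3 ligands were therefore lower in the injured pool beyond counting error, by less than 2-fold, while the median over all genes past 50 CPM was 0.20. Trimmed-mean (TMM) scaling moved all log2 differences by -0.13, so that Kitl was -1.02 and was called. With it 253 genes were higher and 349 lower, against 324 and 283 with CPM.

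The other members had fewer UMIs in both mesenchymal tables. Csf2ra had 13.7 CPM injured and 10.1 CPM uninjured, Csf2rb 6.53 and 4.15, Csf1r 4.003 and 1.38 and Csf3 3.58 and 0.922. Csf3r had 1.26 CPM and 0.461 CPM, and Kit 1.05 CPM and 0.922 CPM. The interval of each of these 6 ratios included 1. Summed markers of macrophages and monocytes, the cells in which Csf1r was high, were 649 CPM in the injured and 83.4 CPM in the uninjured mesenchymal table. C1qa, C1qc and Adgre1 were at 0 in the latter. The part of such cells in the receptor values was not tested.

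**Figure D3:**
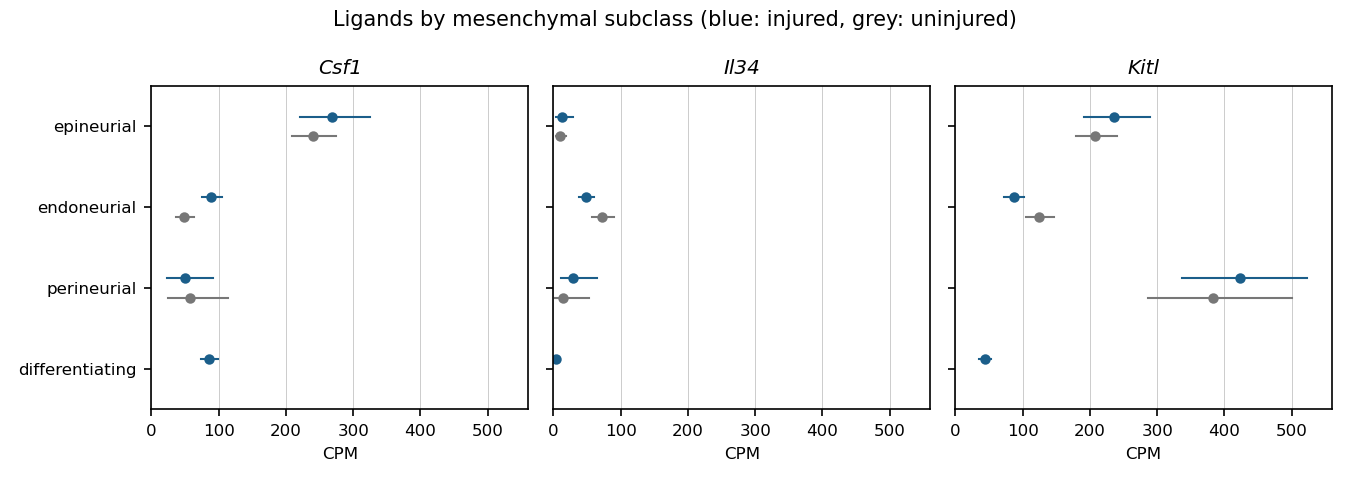
Csf1, Il34 and Kitl in the named mesenchymal subclasses, as CPM on a linear axis. Points are summed cells of the injured (blue) and uninjured (grey) beads libraries with exact Poisson 95% intervals. The differentiating subclass has no uninjured point because it held 2 uninjured cells. Csf1 is highest in epineurial-like, Il34 in endoneurial-like and Kitl in perineurial-like cells of both libraries.

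The mesenchymal cells were also split into subclasses named for the nerve's layers (the inner endoneurium, the perineurial sheath around fascicles and the outer epineurium) and a differentiating-like subclass. Csf1 was highest in epineurial-like cells, at 269 CPM [221 to 325] injured and 240 CPM [209 to 275] uninjured. Kitl was highest in perineurial-like cells, at 423 CPM [338 to 523] and 383 CPM [287 to 501]. Il34 was highest in endoneurial-like cells, at 47.8 CPM [37.8 to 59.7] and 72.4 CPM [57.5 to 90.0]. Each ligand thus had its own leading subclass, the same one in both beads libraries, which were clustered together. In the FACS library, clustered on its own, Kitl was low (28.5 CPM) in the cluster led by Sfrp5, Gjb2 and the perineurial marker Cldn1. Whether that cluster holds the same cells as the perineurial-like subclass was not tested. The step to the next subclass was beyond counting error for Csf1 and Kitl in both beads libraries. With subclasses taken from each cell's marker score in place of clusters, Kitl was 249 CPM in perineurial-like and 223 CPM in epineurial-like injured cells, and 221 CPM and 208 CPM in uninjured cells, so its step was much smaller. For Il34 the step was beyond counting error only in uninjured cells, and the perineurial-like values rest on 6 injured UMIs and 2 uninjured UMIs.

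The subclasses were also not uniform. Within the epineurial-like cells, the subcluster led by Comp, Inmt and C7 had 346 CPM [257 to 454] of Kitl injured and 251 CPM [207 to 301] uninjured. The subcluster led by Pcsk6, Smpd3 and Krtdap, which also had Pi16 among its 5 leading genes, had 81.9 CPM [37.5 to 155] and 93.4 CPM [56.2 to 146]. Csf1 was 169 CPM [110 to 250] and 183 CPM [146 to 227] in the first and 291 CPM [199 to 411] and 256 CPM [191 to 335] in the second. Kitl and Csf1 therefore had opposite orders over these 2 subclusters, in both libraries. For Csf1 the intervals of the subclusters overlapped. The FACS library, clustered on its own, had a like pair among its mesenchymal-like clusters. The cluster led by Inmt, Gdf10 and Fmo2 had 198 CPM of Kitl [151 to 255] and 155 CPM of Csf1 [114 to 206]. The cluster led by Pla1a, Dpp4 and Pcsk6 had 69.3 CPM of Kitl [41.1 to 110] and 350.5 CPM of Csf1 [282 to 430]. Neither pair of intervals overlapped there. These clusters were picked for naming after their values were seen.

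Differentiating-like cells numbered 427 in the injured and 2 in the uninjured library. The injured ones had 43.6 CPM of Kitl [35.2 to 53.3] and 3.67 CPM of Il34 [1.58 to 7.23], and 85.3 CPM of Csf1 [73.5 to 98.5]. Uninjured cells were instead mostly 429 endoneurial-like and 381 epineurial-like cells, against 249 and 198 injured ones. With the 3 shared subclasses given the same weight in both libraries, the log2 differences were 0.23 for Csf1, -0.10 for Il34 and 0.06 for Kitl. Without the differentiating-like cells they were -0.16, -0.16 and -0.35. Thinning every cell to 500 UMIs, which gives each cell kept the same weight, made them 0.40, -0.88 and -0.31. It kept 1135 of 1289 injured and 874 of 880 uninjured cells. In this single draw Il34 had 4 UMIs in injured and 14 UMIs in uninjured endoneurial-like cells, and its -0.88 lies within its interval for all cells. The signs for Csf1 and Kitl and the sizes for all 3 ligands therefore changed with the makeup and weight of the cells pooled.

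**Figure D4:**
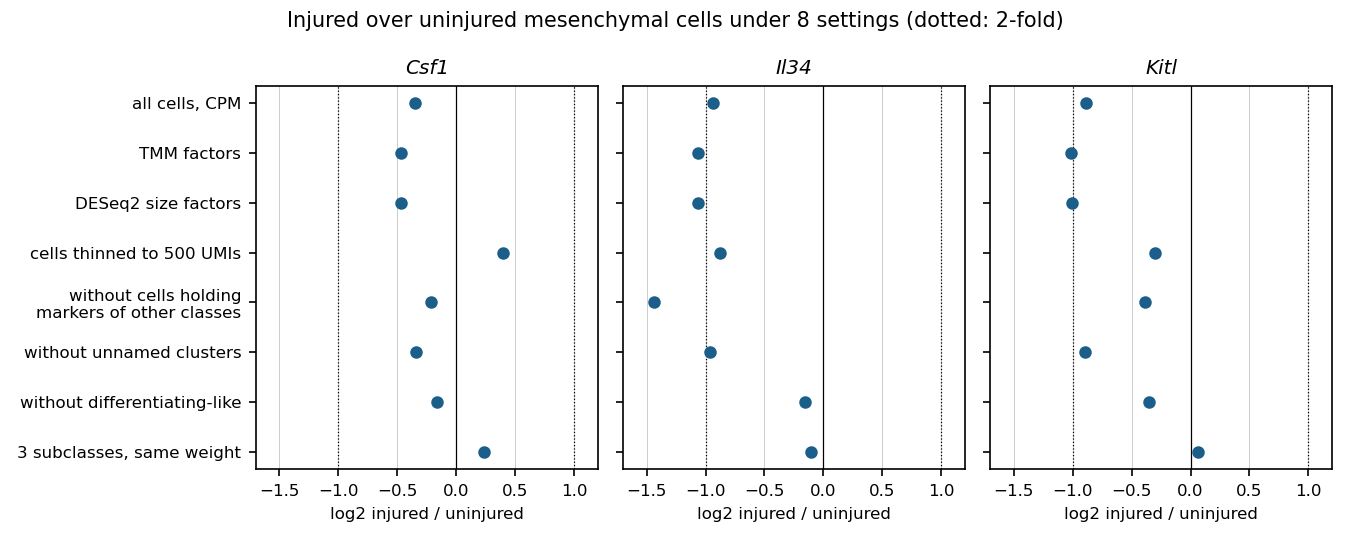
Log2 difference of injured over uninjured mesenchymal cells for the 3 ligands of structural cells, under 8 settings. Each point is 1 setting, the solid line marks no difference and the dotted lines 2-fold. With all cells and CPM the 3 points lie at -0.35, -0.94 and -0.89, and with the 3 subclasses at the same weight at 0.23, -0.10 and 0.06.

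The ligands were then compared within each subclass. In endoneurial-like cells Csf1 was 88.9 CPM [75.0 to 105] injured and 48.3 CPM [36.3 to 63.0] uninjured, a log2 difference of 0.88 [0.42 to 1.36]. Kitl was 86.5 CPM and 124 CPM there (-0.52 [-0.87 to -0.17]), and Il34 had -0.60 [-1.07 to -0.13]. Csf1 was thus higher and the other 2 ligands lower in injured endoneurial-like cells, each by less than 2-fold. Nearly all of the injured endoneurial-like cells were in the subcluster led by Wif1, Ccl9 and Ccl2, and the 429 uninjured ones were in another, led by Enpp2, Angptl7 and Crispld2. In epineurial-like cells Csf1 and Kitl differed by 0.16 [-0.18 to 0.50] and 0.18 [-0.19 to 0.55], and in perineurial-like cells by -0.22 [-1.71 to 1.33] and 0.14 [-0.37 to 0.66]. Il34 differed by 0.32 [-1.60 to 2.05] in epineurial-like cells (5 UMIs injured and 9 uninjured) and by 1.05 [-1.44 to 4.39] in perineurial-like cells (6 and 2 UMIs). These intervals all include 0. Csf1r had 8 UMIs in injured and 0 in uninjured endoneurial-like cells, at 4.91 CPM in the former. No member was called in a subclass, while the shares of all genes called were 20.2% in endoneurial-like, 6.27% in epineurial-like and 13.3% in perineurial-like cells.

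The FACS library's mesenchymal-like cells were set beside the same uninjured cells, which both comparisons share. Kitl was 54.1 CPM [47.4 to 61.6], lower than in uninjured cells by -1.69 in log2 [-1.94 to -1.45], and was the 1 member called, where 19.2% of all genes past 50 CPM were. The 77 of 651 cells without UMIs of 2 or more markers of another class were compared with 518 of 880 uninjured cells kept likewise. Between these filtered pools Kitl was -0.56 and not called, and Csf1 turned from -0.40 to 0.80. With all cells Il34 was -1.54 [-2.02 to -1.06] at under 50 CPM. Csf1r was 11.2 CPM from 48 UMIs, against 3 UMIs uninjured, in a pool with 1570 CPM of summed macrophage and monocyte markers, whose part was not tested. Which of these cells the authors would call mesenchymal is not known here.

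In single mesenchymal cells the ligands were seen together at times. Of 1289 injured cells, 328 held a Csf1 UMI, 79 an Il34 UMI and 241 a Kitl UMI. Csf1 was seen in 40.5% of the Il34 cells and in 25.4% of all cells. In uninjured cells it was seen in 21.7% of the 69 Il34 cells and in 21.2% of all 880. Csf1 was seen in 36.1% of injured and 24.0% of uninjured cells with a Kitl UMI. Cells with more UMIs hold more genes, so these shares also move with depth.

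Other genes of these pathways were taken from 6 lists of 79 genes in all. Of the 76 with a row in a mesenchymal table, 21 reached 50 CPM and 9 were called between injured and uninjured cells, 6 higher and 3 lower. The share called was 15.3% over all genes past 50 CPM, and with the 3 subclasses at the same weight 5 of the listed genes were called. Those same-weight calls used the 50 CPM and 2-fold limits but no interval. Among signal transducers the transcription factor Stat3 was higher in injured cells (186 CPM and 89.0 CPM, log2 1.07). Pik3r1, a regulatory subunit of phosphatidylinositol 3-kinase, was lower (78.0 and 183 CPM, -1.23). The feedback inhibitors split, with Socs2 higher (92.7 and 33.2 CPM, 1.48) and Socs3 lower (180 and 595 CPM, -1.73). Of the lineage transcription factors, Runx1 (143 and 21.7 CPM, 2.72) was higher and Maf was lower (90.6 and 269 CPM, -1.57). Of the proteases that can release membrane-bound growth factors, Mmp14 (1071 and 389 CPM, 1.46) and Adam9 (165 and 81.1 CPM, 1.03) were higher. None of the listed growth factors or other receptors was called, and 1 of these 20 with a row reached 50 CPM.

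Over the classes of the beads library, the listed genes with the highest level in the summed classes had varied patterns. Tyrobp, an adaptor that Csf1r signalling uses, was highest in neutrophil-like cells (3131 CPM), with 2260 CPM in phagocyte-like cells. The kinase Jak1 and the adaptor Grb2 were found widely, at 319 CPM and 191 CPM over all named classes. The transcription factor Cebpb was highest in neutrophil-like cells at 3198 CPM. Socs2 was highest in mast cell-like cells at 909 CPM, where Kit was highest. The mast cell protease gene Cma1 had 59115 CPM there. The phosphatase genes Ptpn6 and Ptpn1 were highest in B or plasma cell-like cells (807 CPM) and in neutrophil-like cells (651 CPM). Among other receptors, Il2rg, the chain shared by several interleukin receptors, was highest in T or NK cell-like cells at 672 CPM. The other growth factors were scarce, with Tnfsf11 at 93.9 CPM and Flt3l at 56.3 CPM in T or NK cell-like cells and Il15 at 67.3 CPM from 6 UMIs in neutrophil-like cells. Mmp14 was highest in mesenchymal-like cells (977 CPM) and the sheddase gene Adam10 in endothelial cell-like cells (332 CPM). Csf2, the ligand for Csf2ra and Csf2rb, was named here after its values were seen. It had 5 UMIs in T or NK cell-like cells and none in any other named class.

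Likeness over classes was described by Pearson's r of log2(CPM + 10) over the 15 class pools of both libraries, among 8187 genes. These pools share libraries and depth, so r is a description only. Marker genes used to name the classes stayed among the candidates. Of the genes named below, Cd68, Lyz2, Clec4d, Gata2 and G0s2 are such markers, so their high r is partly built in. Csf1r was most like Clec4a3 (0.99), Cd68 (0.98) and Lyz2 (0.98). Csf3r was most like Sirpb1b (0.995), Clec4d (0.994) and Gpr35 (0.992), and Csf2ra like Wfdc17 (0.94), Clec4a3 (0.92) and Cd68 (0.90). Kit was most like Gata2 (0.98), a transcription factor of mast cells, Kcne3 (0.97) and Slc6a4 (0.96). The ligands had other partners. Kitl was most like Ehd2 (0.97), Apbb2 (0.96) and Wwtr1 (0.96), Il34 like Cdh2 (0.99), Pacsin3 (0.96) and Mrgprf (0.96), and Csf1 like G0s2 (0.94), Slc40a1 (0.93) and Maff (0.92). Csf2rb, high in classes of 3 kinds, had the lowest values, with Sat1 (0.92), Zfp36 (0.90) and Cmip (0.89).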

How the data were processed

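Drop-seq libraries of mouse sciatic nerve were used as 4 tables of raw counts, which the authors deposited as UMIs of each gene in each cell, not normalized. The genome build was mm10, per the submitters' processing notes; the aligner, the counting rule and how mesenchymal cells were predicted are not stated there. Older gene symbols were updated from RefSeq. A gene without a row in the uninjured table was read as 0, and one without a row in the FACS table was given no value.

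Cells with at least 200 genes were clustered (scanpy 1.11.5, Leiden resolution 0.8) with the 9 members left out, and clusters were named from marker lists. Macrophage with dendritic and B with plasma cell lists were joined after the data were seen. No doublet caller was run, so doublets remain. Counts were summed per class, with Poisson and binomial exact 95% intervals for counting error. The calling rule (at least 50 CPM in a pool, at least 2-fold, interval excluding 1) was checked on simulated counts that varied by counting error alone. That check does not cover differences between animals, preparations or the makeup of the cells. Other scalings came from edgeR 4.0.16 and DESeq2 1.42.0. Of each pathway list, called genes and up to 4 of highest level are named, and for each member with at least 50 CPM the 3 genes of most similar pattern, leaving out predicted, ribosomal and mitochondrial genes. Members, lists and rules were chosen with earlier results of these data known. Results that need some genes are not reported here.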

Additional observations from a re-analysis of the deposited data

Results flagged for a closer look

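The estimated difference between injured and uninjured cells had opposite signs between mesenchymal subclasses for 3 ligands. The intervals of all differences in epineurial-like and perineurial-like cells include 0, so counting error covers the signs there. Il34 was also under 50 CPM in these subclasses. For Csf1 the log2 difference was 0.88 in endoneurial-like and 0.16 in epineurial-like cells, against -0.22 in perineurial-like cells, where it rests on 10 and 8 UMIs. For Kitl it was -0.52 in endoneurial-like cells, against 0.18 in epineurial-like and 0.14 in perineurial-like cells. For Il34 it was -0.60 in endoneurial-like cells, against 0.32 and 1.05 in epineurial-like and perineurial-like cells, which rest on 9 or fewer UMIs in each pool. With 1 library in each group, the difference between subclasses was not tested.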

How the results depend on the processing

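Of 34 recomputed counts, 24 stayed within 1.5 times the reported one, 4 were lower and 6 were higher. Of 39 recomputed log2 differences of Csf1, Il34 and Kitl, 12 fell outside the interval of the main setting. Of 105 recomputed CPM values of a member in its highest class, 15 did. A count cannot show a change of direction, but the log2 differences of injured over uninjured cells can. They were below 0 in 7 of 9 alternatives for Csf1, in 9 of 9 for Il34 and in 8 of 9 for Kitl. Some of these alternatives could not change a negative sign. A changed or absent floor leaves the log2 differences as they are. TMM and DESeq2 factors only shift all of them, by -0.13 and -0.12. The count of members called between injured and uninjured mesenchymal cells went from 0 to 1 (Kitl) with TMM factors or with DESeq2 size factors. The count of pathway genes called went from 9 to 18 at a floor of 10 CPM, to 23 with no floor and to 5 with 3 subclasses at the same weight. The same-weight calls used no interval. For the FACS mesenchymal-like cells the 1 called member became 4 at a floor of 10 CPM and 0 in the cells without markers of other classes, an alternative chosen after seeing the data. Between beads and FACS cells the count went from 0 to 2 at a floor of 10 CPM. The share of all genes called was not taken at these other floors, weights or cell filters. These changed counts therefore have no background to be read against. The highest class was the reported one in all 17 pairs of member and library at resolutions 0.4 and 1.6, after thinning and with members among the variable genes, in 16 with marker UMIs alone, in 9 among cells with at least 500 genes, where no cluster was named neutrophil-like, and in 10 without cells holding markers of other classes, where some classes kept few cells. The leading subclass was the reported one in all 6 cases under each of 4 alternatives, but with subclasses from each cell's marker score perineurial-like Kitl went from 423 to 249 CPM injured and from 383 to 221 CPM uninjured, close to epineurial-like cells at 223 and 208 CPM. After thinning, the lead of Il34 in injured endoneurial-like cells rested on 4 UMIs (32.3 CPM), against 1 UMI (30.8 CPM) in perineurial-like cells. No paired analysis was possible because each group has 1 library. Depth limits the neutrophil-like and mast cell-like values, the FACS classes under 100 cells and members under 10 CPM.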

Other observations

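Cells left without a class also held ligand UMIs. In the beads library 342 unnamed cells, led by haemoglobin genes and Cxcl13 with a median of 572 UMIs, had 80.3 CPM of Kitl from 28 UMIs and 54.5 CPM of Csf1 from 19 UMIs. In the FACS library 213 unnamed cells led by Car3, Cfd and Adipoq, genes of fat cells, had 100 CPM of Csf1 from 14 UMIs and 21.5 CPM of Kitl from 3 UMIs, and 0 UMIs of Il34. Among the injured cells deposited as mesenchymal, 250 unnamed cells led by S100a8, Gm10800 and Esm1 had 94.05 CPM of Csf1 from 23 UMIs and 85.9 CPM of Kitl from 21 UMIs. Another 96, led by H2-Aa, Cd74 and H2-Eb1, genes of antigen presentation, had 57.1 CPM of Il34 from 5 UMIs, 137 CPM of Kitl from 12 UMIs and 11.4 CPM of Csf1r from 1 UMI.

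Kitl differed between libraries in the mesenchymal-like clusters led by Sfrp5. In the beads library the cluster led by Sfrp5, Lypd2 and Msln had 425 CPM [343 to 520] from 93 UMIs in 90 cells. In the FACS library the cluster led by Sfrp5, Gjb2 and Cldn1 had 28.5 CPM [18.2 to 42.4] from 24 UMIs in 144 cells. These clusters were formed separately, share their leading gene but not the next 2, and were picked after their values were seen, so whether they hold the same cells was not tested.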
